A study of Mus musculus with 40 samples.

Results

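The comparison set the embryonic trachea shortly before birth, at E18.5, against the trachea at E13.5. Its members were the 2 short-code libraries of E18.5 trachea and the 2 short-code libraries of E13.5 trachea, chosen by their labels, and they are 4 of the 40 libraries of the series. The other libraries cover the larynx and the esophagus at the same ages, the trachea at E10.5, E11.5 and E15.5, and the larynx after birth. All 4 libraries came from untreated wild-type FVB/N embryos, so strain, genotype and treatment were the same in both groups and age was the difference. The methods give 10 pooled animals for E18.5 and 10 for E13.5, and each sample was a small piece of trachea cut just behind the larynx. The methods call the 2 libraries of an age biological replicates, but how the pooled animals were divided between them is not given. The p-values thus reflect only how far the 2 libraries of a group lie apart, which may be technical. This spread was estimated over all 30 short-code libraries (15 groups of organ and age), so it is not that of the 4 trachea libraries alone. RNA was read in bulk, as the sum over all cells of the piece, so that more cells of a type and more RNA per cell of that type cannot be told apart.

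Between these ages the mouse trachea changes from a simple tube into an airway that can be breathed through. Its epithelium gives rise to basal stem cells, to secretory cells that make mucus and defence proteins, and to multiciliated cells whose beating axonemes move the mucus along. The mesenchyme around it bears C-shaped cartilage rings on the ventral side, which hold the tube open. On the dorsal side lies the trachealis muscle, embedded in collagen and elastic fibers. The authors describe airway smooth muscle and the segments of cartilage as already in place when tracheal epithelial cell types begin to differentiate, after E13.5. Growth through cell division slows as these tissues mature, and glucocorticoid hormone rises in the fetus before birth.

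The E18.5 libraries held 20313905 and 26378626 expected counts, against 23210925 and 12883607 in the E13.5 libraries, so replicate 2 at E13.5 was the shallowest of the 4. Mitochondrial ribosomal RNA took 21.8% and 24.8% of the counts at E18.5, against 16.8% and 22.8% at E13.5. Across genes, the 2 libraries of an age correlated at r = 0.974 at E18.5 and r = 0.963 at E13.5 on the log2 scale, where genes are not independent replicates. Levels below are normalized read counts, that is, expected counts divided by a median-ratio factor per library, given as replicate 1 then replicate 2. They compare a gene between libraries and are not corrected for gene length.

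Markers of the labelled tissue were present in every library. Epcam, an epithelial adhesion molecule, was at 1953 and 1983 at E18.5, against 1013 and 890 at E13.5, and Nkx2-1, the transcription factor of the respiratory and thyroid lineages, was at 87.7 and 74 at E18.5, against 23.2 and 36.9 at E13.5. Markers of neighbouring organs were present as well, and they differed between the ages. Tg, the thyroid hormone precursor thyroglobulin, stood at 217219 and 147119 at E18.5, against 58.6 and 33.2 at E13.5. Ckm, the creatine kinase of skeletal muscle, stood at 41801 and 43467 at E18.5, against 164 and 217 at E13.5. Krt4, a keratin of squamous epithelium such as that of the esophagus, though not particular to that organ, stood at 20113 and 9888 at E18.5, against 18 and 17.2 at E13.5. Conversely, Myh6, a myosin of heart muscle, stood at 837 and 888 at E18.5, against 22151 and 32729 at E13.5. Alb, serum albumin of the liver, was at 0 in both E18.5 libraries, against 10186 and 215 at E13.5, so most of it lay in 1 of the 2 E13.5 libraries. The lymphocyte recombinase Rag1 also lay mainly in that library, at 16 and 9.97 at E18.5, against 303 and 1.23 at E13.5.

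The whole marker lists gave the same picture, counted with the test described next. Of 13 thyroid genes 10 rose (5 without replicate 2 at E13.5), with a summed level of 220500 and 149300 at E18.5, against 184.7 and 125.6 at E13.5. Of 28 skeletal muscle genes 25 rose, with a sum of 1300000 and 1350000 at E18.5, against 46660 and 34150 at E13.5. Of 20 heart muscle genes 14 fell and 1 rose, with a sum of 38880 and 35200 at E18.5, against 80550 and 132800 at E13.5, and the count of falls was 8 without replicate 2 at E18.5. These sums separated the ages in both libraries, whereas the liver list, at 3271 and 6392 at E18.5, against 37350 and 1842 at E13.5, and the thymus list, at 583.9 and 315.8 at E18.5, against 3067 and 222.8 at E13.5, were high in replicate 1 at E13.5 only. The part of these neighbouring tissues in the results on the trachea was not tested.

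**Figure D1:**
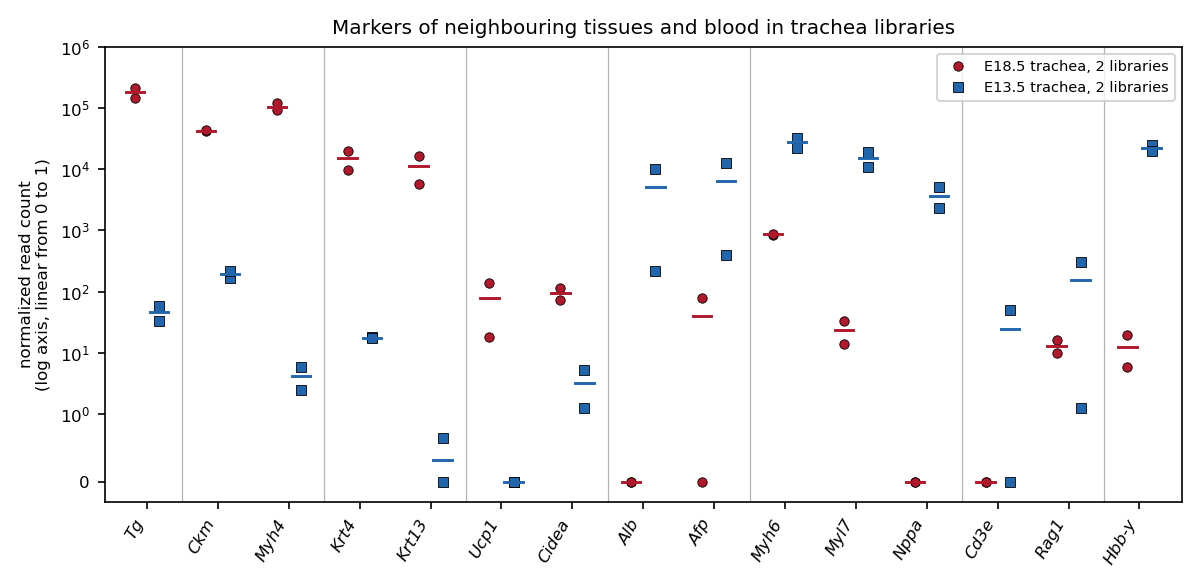
Normalized read counts (log axis, linear from 0 to 1) of marker genes of thyroid (Tg), skeletal muscle (Ckm, Myh4), squamous epithelium (Krt4, Krt13), brown fat (Ucp1, Cidea), liver (Alb, Afp), heart (Myh6, Myl7, Nppa), thymus (Cd3e, Rag1) and embryonic red blood cells (Hbb-y) in the 2 E18.5 and the 2 E13.5 trachea libraries, with a bar at each mean. Thyroid, muscle and squamous markers were higher at E18.5 and heart markers and Hbb-y higher at E13.5, while Alb was at 10186 in 1 of the E13.5 libraries and 215 in the other.

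Of 35512 genes tested, 3262 rose at E18.5 and 2250 fell (edgeR's quasi-likelihood test, Benjamini-Hochberg adjusted p under 0.05, the test behind every adjusted p given here). The background share was thus 9.19% of genes for rises and 6.34% for falls. It was higher among the 20210 protein-coding genes tested, of which 3011 rose and 2138 fell. The counts of members in the gene lists that follow are to be read against both. Rises were larger, with a median log2 fold change of 2.07 among the genes that rose and -1.15 among those that fell. The groups did not overlap in 5495 of the 5512 called genes, against 16311 (45.9%) of all genes tested. At E13.5, 249 of the genes that rose had no count, and at E18.5, 70 of the genes that fell had none. The median log2 fold change was 0.00 over all genes tested and 0.24 over the 27801 that had a count in these 4 libraries. The number called depended on single libraries: it was 3011 without replicate 2 at E13.5 and 3287 without replicate 2 at E18.5.

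The 10 largest rises, taken among protein-coding genes with a mean level of at least 50 and no overlap between the groups, were Reg3g, Muc5b, Scgb3a1, Myh4, Krt13, Sec14l3, Scgb1a1, Psca, Fam240b and Gp2. Reg3g, Muc5b, Scgb3a1, Scgb1a1 and Gp2 encode secreted or surface proteins of mucosal epithelium, Krt13 is a squamous keratin and Myh4 a fast skeletal myosin. Sec14l3, known in rodents from airway epithelium, was at 1876 and 1444 at E18.5, against 0 in both E13.5 libraries. Fam240b was at 874 and 1105 at E18.5, against 0 in both at E13.5. With a floor of 3 counts per library at E13.5, Sec14l3 was at least 590-fold higher and Fam240b at least 352-fold higher at E18.5.

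The 10 largest falls by the same rule were Alb, Nppa, Serpina6, Bmp10, Apoa2, Serpinf2, Tbx20, Ambp, Hbb-y and Nppb. Alb, Serpina6, Apoa2, Serpinf2 and Ambp encode liver plasma proteins, Nppa, Nppb, Bmp10 and Tbx20 are heart genes, and Hbb-y is the embryonic globin of primitive red blood cells. Alb was at least 1820-fold lower at E18.5, and at least 75.6-fold lower without replicate 1 at E13.5. Its call held when any of the 4 libraries was left out, but those of the other liver genes did not. Serpina6 was at 0 in both E18.5 libraries, against 1839 and 51.7 at E13.5, at least 332-fold lower, and its adjusted p of 0.00715 was 0.066 to 0.147 without either E18.5 library or without replicate 1 at E13.5, as those of Apoa2, Serpinf2 and Ambp were also above 0.05. Nppa, at 0 at E18.5, against 2293 and 5083 at E13.5, was at least 1290-fold lower, with an adjusted p of 0.00409 that was 0.0554 without replicate 2 at E18.5. Hbb-y was at 19.2 and 5.82 at E18.5, against 24917 and 19861 at E13.5 (log2 fold change -10.85, SE 0.81, adjusted p = 8.88e-09), a fall that lay in both libraries of each age.

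**Figure D2:**
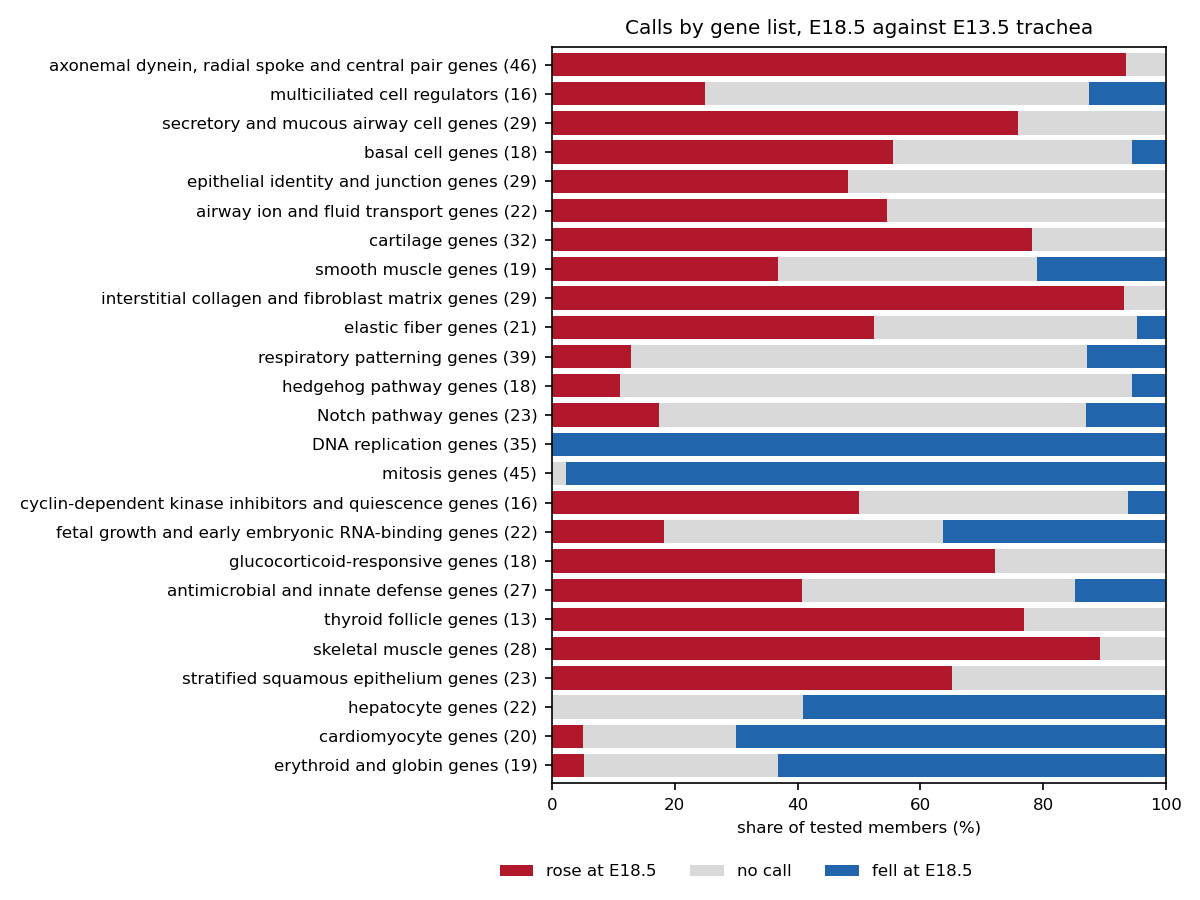
Share of the tested members of 25 gene lists (number tested in parentheses) that rose at E18.5, had no call, or fell at E18.5 in the trachea. Of all genes tested, 9.19% rose and 6.34% fell. Axonemal, interstitial collagen and skeletal muscle genes lay almost wholly on the side of rises, and all 35 DNA replication genes and 44 of 45 mitosis genes on the side of falls.

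Genes of the motile cilium rose together. Of 46 tested genes for axonemal dyneins, radial spokes and the central pair, 43 rose, 3 had no call and 0 fell, with a median log2 fold change of 5.48 (5.42 with genes at 0 at their bounds), against 0.24 over all genes with a count. Foxj1 (ENSMUSG00000034227), the master transcription factor of motile cilia, was at 665 and 491 at E18.5, against 10.3 and 4.92 at E13.5 (log2 fold change 6.14, SE 0.989, adjusted p = 9.78e-05). Dnah5, a heavy chain of the outer dynein arm, was at 2678 and 2529 at E18.5, against 8.36 and 0 at E13.5 (log2 fold change 8.93, SE 1.19, adjusted p = 1.14e-05). The groups lay far apart in both genes, with the E13.5 libraries near the floor of about 2.81 normalized counts.

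Other members of the list covered each part of the axoneme. Tppp3, a tubulin-binding protein with the highest level of the list, was at 3993 and 3175 at E18.5, against 194 and 96 at E13.5 (log2 fold change 4.61, SE 0.476, adjusted p = 6.75e-07). Hydin, of the central pair, was at 885 and 870 at E18.5, against 16.7 and 46.8 at E13.5. Dynlrb2, a dynein light chain, was at 402 and 271 at E18.5 and at 0 in both E13.5 libraries, at least 120-fold higher, and Tekt4, which lines the doublet microtubules, was at 352 and 238 at E18.5 and at 0 at E13.5, at least 105-fold higher. The 3 members without a call were Ccdc103, Tekt2 and Gas8. Gas8, of the dynein regulatory complex, was at 264 and 242 at E18.5, against 288 and 316 at E13.5 (log2 fold change -0.25, SE 0.211). The count of 43 was 38 to 41 when any of the 4 libraries was left out.

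The regulators upstream of the axoneme were less uniform: of 16, 4 rose, 2 fell and 10 had no call. Besides Foxj1, Rfx2, an RFX factor that binds X-box elements in cilium promoters, was at 267 and 199 at E18.5, against 78.5 and 66.5 at E13.5 (log2 fold change 1.68, SE 0.34, adjusted p = 0.00101). Deup1, which nucleates the extra centrioles of multiciliated cells, was at 99.5 and 126 at E18.5, against 3.86 and 0 at E13.5 (log2 fold change 5.54, SE 1.18, adjusted p = 0.00159). Mcidas, which starts the multiciliated program, was low at both ages, at 8.55 and 12.5 at E18.5, against 2.57 and 3.69 at E13.5 (adjusted p = 0.541). E2f4 and Tfdp1, which act with it but also serve the cell cycle, were the 2 that fell, E2f4 to 269 and 258 at E18.5, against 599 and 452 at E13.5. The call of E2f4 was lost without either E18.5 library or without replicate 1 at E13.5 (adjusted p between 0.0612 and 0.129), and that of Tfdp1 without replicate 1 at E18.5.

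Promoters were read for the cilium genes because their shared motif is known. Letters GTTGCCA, the core of the X-box, stood on either strand within 250 bases before to 50 bases after the start of 9 of 46 structural cilium genes (19.6%) and of 2 of 16 regulators (12.5%), against 895 of 21626 promoters of all protein-coding genes (4.14%). Of the called holders, 2 with a high mean level were Hydin (chr8:110993333-110993632, plus strand) and Dnah1 (chr14:31045866-31046165, minus strand), both in GRCm39 with starts from GENCODE vM39. They are printed 5′ to 3′ with the motif in capitals, which in Hydin lies on the opposite strand, with its first base at position 12 counted from 0 at the start, and in Dnah1 at position -207 on the same strand. A match is only a description of the letters. Dnah1, of the inner dynein arm, was at 450 and 472 at E18.5, against 134 and 163 at E13.5 (log2 fold change 1.64, SE 0.506, adjusted p = 0.0275), and its adjusted p was 0.0813 to 0.17 when any of the 4 libraries was left out.
Hydin: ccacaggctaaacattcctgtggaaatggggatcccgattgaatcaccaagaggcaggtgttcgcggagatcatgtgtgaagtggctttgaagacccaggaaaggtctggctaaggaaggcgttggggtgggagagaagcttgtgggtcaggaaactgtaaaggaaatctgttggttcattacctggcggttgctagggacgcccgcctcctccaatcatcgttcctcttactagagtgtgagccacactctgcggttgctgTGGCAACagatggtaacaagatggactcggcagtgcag
Dnah1: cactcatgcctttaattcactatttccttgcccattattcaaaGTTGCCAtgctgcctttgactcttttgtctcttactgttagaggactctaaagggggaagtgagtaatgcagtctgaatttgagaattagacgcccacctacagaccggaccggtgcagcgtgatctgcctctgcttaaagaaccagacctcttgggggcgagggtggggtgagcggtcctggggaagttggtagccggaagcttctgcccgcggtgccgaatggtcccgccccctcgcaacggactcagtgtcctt

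Secretory and mucous cell genes rose in large part. Of 29 tested, 22 rose and 0 fell, with a median log2 fold change of 5.69 (5.22 with bounds). Muc5b (ENSMUSG00000066108), the main gel-forming mucin of the mouse airway, was at 49476 and 163073 at E18.5, against 1.93 and 0 at E13.5, a ratio of 89500 (95% counting interval 30600 to 434000, adjusted p = 4.07e-06). Scgb1a1 (ENSMUSG00000024653), the secretoglobin that defines club cells, was at 999 and 1931 at E18.5 and at 0 in both E13.5 libraries, at least 521-fold higher (adjusted p = 0.000541). Both genes were higher in replicate 2 than in replicate 1 at E18.5, as was the summed level of the list, 317200 in replicate 2 and 125500 in replicate 1.

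Secretoglobins were not all silent at E13.5. Scgb3a2, another secretoglobin, was at 14267 and 32121 at E18.5, against 92.7 and 78.8 at E13.5 (log2 fold change 8.07, SE 1.44, adjusted p = 0.000363). Cyp2f2, a cytochrome of club cells, was at 9691 and 8688 at E18.5, against 14.8 and 11.1 at E13.5 (log2 fold change 9.42, SE 1.14, adjusted p = 1.23e-05). Agr2, a disulfide isomerase needed for mucin folding, was at 3312 and 6910 at E18.5, against 18 and 11.1 at E13.5 (log2 fold change 8.39, SE 1.28). Spdef, the transcription factor of mucous cells, was at 129 and 207 at E18.5, against 8.36 and 7.39 at E13.5 (log2 fold change 4.39, SE 0.863, adjusted p = 0.000751). Bpifa1, a secreted defence protein of the upper airway, was at 2248 and 3988 at E18.5, against 184 and 0 at E13.5. It had no call (adjusted p = 0.128), and its 2 E13.5 libraries lay far apart. Genes of 1 family, such as the secretoglobins, share sequence that the counting divides between them, so the level of each is an estimate.

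Basal cell genes split. Of 18 tested, 10 rose, 1 fell and 7 had no call, and the count of 10 was 6 without replicate 2 at E18.5 and 6 without replicate 2 at E13.5. Krt15, a keratin of basal cells, was at 12338 and 8423 at E18.5, against 122 and 272 at E13.5 (log2 fold change 5.73, SE 1.24, adjusted p = 0.00185). Aqp3, a water and glycerol channel, was at 1576 and 1516 at E18.5, against 39.9 and 0 at E13.5 (log2 fold change 6.08, SE 0.951). Trp63 and Krt5, which define basal cells, had no call. Trp63 was at 817 and 598 at E18.5, against 436 and 111 at E13.5 (log2 fold change 1.35, SE 0.617, adjusted p = 0.165). Krt5 was at 2248 and 1236 at E18.5, against 666 and 66.5 at E13.5 (log2 fold change 2.23, SE 0.908, adjusted p = 0.109). Neither overlapped between the ages, and in both the 2 E13.5 libraries differed several-fold, replicate 1 being higher.

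Of 29 genes of epithelial identity and junctions, 14 rose and 0 fell, and the count was 5 to 9 when any of the 4 libraries was left out. Ehf, an epithelial ETS factor, was at 2379 and 2800 at E18.5, against 68.2 and 50.5 at E13.5 (log2 fold change 5.43, SE 0.95, adjusted p = 0.000237), and Cdh1, E-cadherin, was at 2363 and 2871 at E18.5, against 659 and 545 at E13.5 (log2 fold change 2.12, SE 0.446, adjusted p = 0.00145). Krt19, a keratin of simple epithelium, was at 4368 and 4934 at E18.5, against 545 and 540 at E13.5 (log2 fold change 3.10). Epcam and Krt8 had no call. Epcam had a log2 fold change of 1.05 (SE 0.744, adjusted p = 0.447) and Krt8, another such keratin, was at 3578 and 3711 at E18.5, against 2134 and 937 at E13.5 (adjusted p = 0.388). Nkx2-1 and Sox2, the factors that divide the foregut into airway and esophagus, had log2 fold changes of 1.43 (SE 1.09, adjusted p = 0.49) and 1.15 (SE 0.574, adjusted p = 0.217). Foxa2, a foregut endoderm factor, was at 52.4 and 69 at E18.5, against 122 and 219 at E13.5 (adjusted p = 0.0634).

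Squamous genes rose with them: 15 of 23 tested rose and 0 fell, with a median of 6.54 (3.84 with bounds). Krt13 was at 16549 and 5822 at E18.5, against 0.643 and 0 at E13.5, and Krt6a, a keratin of stratified epithelium, at 5024 and 2848 at E18.5, against 18 and 8.62 at E13.5. Replicate 1 was the higher E18.5 library in these genes, whereas replicate 2 was the higher in the summed level of the secretory list, though not in Cyp2f2. The squamous list had medians of 7.98 in the esophagus and 8.72 in the larynx over the same ages, and the source of these RNAs within the E18.5 piece of trachea was not tested.

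Ion and water transport genes of the airway surface rose in part, and which cells held these RNAs was not tested. Of 22 tested, 12 rose, 0 fell and 10 had no call. Scnn1a, a subunit of the sodium channel that clears fluid from the airway, was at 343 and 310 at E18.5, against 28.3 and 8.62 at E13.5 (log2 fold change 4.08, SE 0.79, adjusted p = 0.000648). Slc12a2, the chloride uptake carrier that feeds secretion, was at 2995 and 4117 at E18.5, against 939 and 1051 at E13.5 (log2 fold change 1.84, SE 0.237, adjusted p = 7.93e-06). Clca1, a secreted modulator of chloride channels, was at 226 and 348 at E18.5, against 1.93 and 0 at E13.5, a ratio of 232 (95% counting interval 79.2 to 1130). Cftr, the chloride channel altered in cystic fibrosis, did not rise: it was at 63.1 and 101 at E18.5, against 129 and 193 at E13.5 (log2 fold change -0.97, SE 0.708, adjusted p = 0.462).

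**Figure D3:**
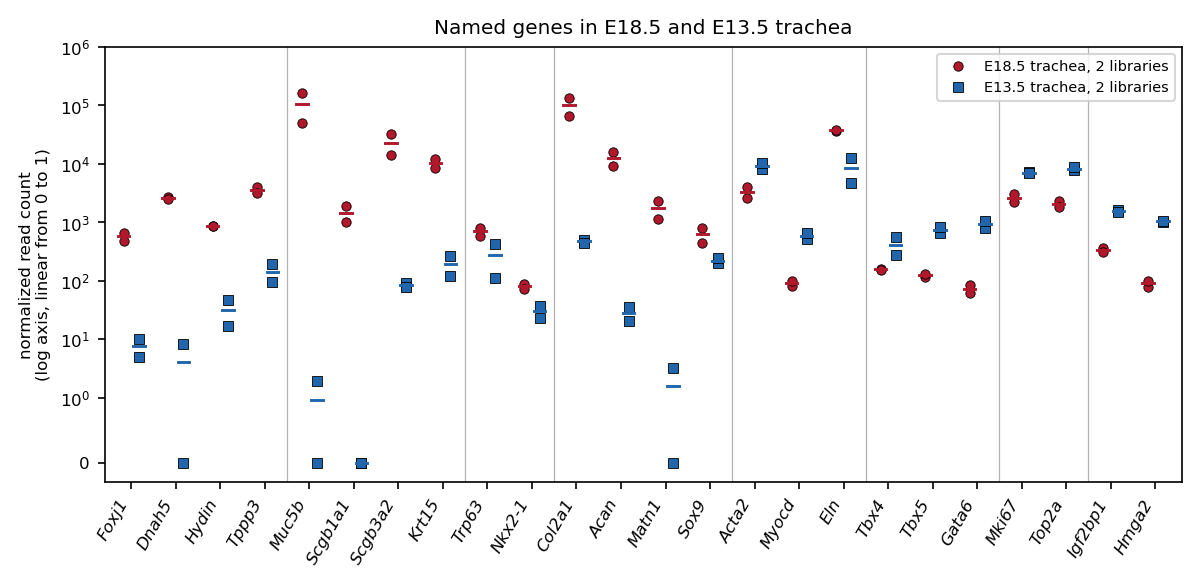
Normalized read counts (log axis, linear from 0 to 1) of 24 named genes in the 2 E18.5 and the 2 E13.5 trachea libraries, with a bar at each mean, from cilium and secretory genes on the left through basal, cartilage, muscle and mesenchyme genes to cell cycle and fetal growth genes on the right. Foxj1, Muc5b and Col2a1 were higher in both E18.5 libraries, and Gata6, Mki67 and Hmga2 higher in both E13.5 libraries, while Tbx4 and Trp63 had no call.

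Most cartilage genes rose. Of 32 tested, 25 rose, 0 fell and 7 had no call, with a median log2 fold change of 4.69. Col2a1 (ENSMUSG00000022483), the main collagen of cartilage, was at 136417 and 66500 at E18.5, against 511 and 448 at E13.5 (log2 fold change 7.72, SE 0.972, adjusted p = 6.26e-06). Acan, aggrecan, the proteoglycan that holds its water, was at 15774 and 9263 at E18.5, against 36 and 20.9 at E13.5 (log2 fold change 8.73, SE 1.19, adjusted p = 1.42e-05). Matn1, a matrilin that is a marker of tracheal cartilage, was at 2363 and 1152 at E18.5, against 3.22 and 0 at E13.5 (log2 fold change 9.66, SE 1.77, adjusted p = 0.000377). Replicate 1 was the higher E18.5 library in each of these, and in the summed level of the list, 311100 in replicate 1 and 172000 in replicate 2.

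Transcription factors of cartilage had smaller fold changes than these matrix genes. Sox9, the transcription factor that starts chondrogenesis, was at 801 and 454 at E18.5, against 201 and 246 at E13.5 (log2 fold change 1.49, SE 0.496, adjusted p = 0.0423), and this call was lost without replicate 1 at E18.5 (adjusted p = 0.343) and without replicate 1 or 2 at E13.5 (0.222 and 0.143). Sox6 rose, to 1341 and 1022 at E18.5, against 371 and 490 at E13.5 (log2 fold change 1.46, SE 0.332, adjusted p = 0.00288, or 0.0564 without replicate 1 at E13.5), and Sox5 was at 255 and 207 at E18.5, against 120 and 170 at E13.5 (adjusted p = 0.264). Col10a1, the collagen of hypertrophic cartilage that precedes bone, stayed low, at 76.1 ± 19.4 at E18.5, against 11.3 ± 3.21 at E13.5 (SD, n = 2 each, log2 fold change 2.79, SE 0.59, adjusted p = 0.00149). Chad, chondroadherin, was at 2268 and 1881 at E18.5, against 3.22 and 2.46 at E13.5 (log2 fold change 9.41, SE 0.706, adjusted p = 8.88e-09).

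Genes of smooth muscle went in both directions: of 19 tested, 7 rose, 4 fell and 8 had no call, with 4 rises without replicate 1 at E18.5 and 2 falls without replicate 2 at E13.5. The members that fell were Acta2, Myocd, Pgm5 and Cald1, of which Pgm5 lost its call without replicate 2 at E18.5 (adjusted p = 0.0554) and Cald1 without replicate 2 at either age. Acta2 (ENSMUSG00000035783), smooth muscle actin, was at 2643 and 4026 at E18.5, against 8059 and 10519 at E13.5 (log2 fold change -1.48, SE 0.379, adjusted p = 0.00776), with the call lost without replicate 1 at E18.5 (adjusted p = 0.131) and without replicate 2 at E13.5 (0.0833). Myocd, the coactivator that drives smooth and heart muscle genes, was at 81.3 and 99.7 at E18.5, against 512 and 666 at E13.5 (log2 fold change -2.70, SE 0.569, adjusted p = 0.00149). Myh11, the myosin of mature smooth muscle, was at 1337 and 2277 at E18.5, against 1580 and 2066 at E13.5, and its groups overlapped (log2 fold change -0.01, SE 0.73). The members that rose most were Ckm, Tpm2 and Des. Ckm is the creatine kinase of skeletal muscle named above, so the 7 rises are not all of smooth muscle genes. Tpm2 and Des are also expressed by skeletal muscle: Des, desmin, was at 18000 and 17002 at E18.5, against 1570 and 2238 at E13.5. Beside them, the skeletal muscle list rose and the heart muscle list fell, with the sums given above, and their part in the smooth muscle list was not tested.

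Nearly the whole interstitial matrix rose. Of 29 collagen and fibroblast matrix genes, 27 rose and 0 fell, with a median log2 fold change of 1.98, smaller than in cartilage, and the count was 21 to 27 when any of the 4 libraries was left out. Col1a1, of type I collagen, was at 64207 and 69958 at E18.5, against 14456 and 7705 at E13.5 (log2 fold change 2.60, SE 0.421, adjusted p = 0.000105). Col1a2, its partner chain, had a log2 fold change of 1.80 (SE 0.343, adjusted p = 0.000534). Dpt, dermatopontin, which binds collagen fibrils, was at 2975 and 3918 at E18.5, against 162 and 106 at E13.5 (log2 fold change 4.67, SE 0.499, adjusted p = 1.67e-06). Lum and Dcn, small proteoglycans of collagen fibrils, were the 2 without a call, Dcn at 9954 and 11152 at E18.5, against 7560 and 6405 at E13.5.

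Among 21 elastic fiber genes, 11 rose, 1 fell and 9 had no call. Eln (ENSMUSG00000029675), elastin, was at 37107 and 38532 at E18.5, against 12438 and 4704 at E13.5 (log2 fold change 2.14, SE 0.585, adjusted p = 0.0124). Its 2 E13.5 libraries differed more than its E18.5 libraries, and the adjusted p was 0.212 without replicate 2 at E13.5 and 0.0513 without replicate 2 at E18.5. Ltbp2, a microfibril protein that binds fibrillin, was at 3620 and 4969 at E18.5, against 74 and 48 at E13.5 (log2 fold change 6.11, SE 0.407, adjusted p = 2.27e-09), and Fbn1, fibrillin-1, was at 19179 and 28549 at E18.5, against 5549 and 4396 at E13.5 (log2 fold change 2.26, SE 0.292). Fbln1, a fibulin of early matrix, was the member that fell, to 1520 and 1078 at E18.5, against 2727 and 2284 at E13.5, with an adjusted p of 0.00623 that was 0.148 without replicate 2 at E18.5 and 0.0675 without replicate 1 at E13.5.

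Of 39 genes that pattern the respiratory tube, 5 rose, 5 fell and 29 had no call, shares near the background, and the counts were 2 to 4 rises and 2 to 3 falls when any of the 4 libraries was left out. Gata6, a factor of lung epithelium, smooth muscle and heart, fell to 62 and 85.6 at E18.5, against 801 and 1062 at E13.5 (log2 fold change -3.65, SE 0.433, adjusted p = 3.38e-06). Wnt2, a mesenchymal signal that specifies the respiratory endoderm, was at 22.5 and 61.5 at E18.5, against 220 and 378 at E13.5 (log2 fold change -2.81, SE 0.505, adjusted p = 0.000305). Tbx5, a mesenchymal and heart factor, was at 115 and 134 at E18.5, against 654 and 852 at E13.5 (log2 fold change -2.59, SE 0.779, adjusted p = 0.0235), and its adjusted p was 0.107 to 0.159 without either E18.5 library or without replicate 2 at E13.5. Tbx4, its partner in the tracheal mesenchyme, was at 159 and 156 at E18.5, against 277 and 555 at E13.5, without a call (adjusted p = 0.235). Gata6, Wnt2 and Tbx5 are also expressed in or near the heart, whose markers were high in both E13.5 libraries, and the part of heart tissue in these falls was not tested.

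The patterning genes that rose were Osr2, Nog, Foxa1, Wnt4 and Wnt5a, of which Osr2 lost its call without replicate 2 at E13.5, Nog without replicate 1 at E18.5 or replicate 2 at E13.5, and Foxa1 without any of the 4 libraries. Wnt4, a signal that tracheal cartilage formation needs, was at 651 and 517 at E18.5, against 202 and 137 at E13.5 (log2 fold change 1.78, SE 0.33, adjusted p = 0.00042), and Wnt5a, a non-canonical signal that shapes the tube, was at 1054 and 1191 at E18.5, against 485 and 476 at E13.5 (log2 fold change 1.22, SE 0.284, adjusted p = 0.00343). Of 18 hedgehog pathway genes, 2 rose, Scube2 and Boc, whose calls were both lost without replicate 2 at E13.5 (adjusted p = 0.0737 and 0.0531) and that of Scube2 also without replicate 1 at E13.5 (0.0706), and 1 fell, Gli3, whose log2 fold change of -0.60 had an adjusted p of 0.041 and of 0.0827 to 0.254 when any of the 4 libraries was left out. Shh, the ligand made by the epithelium, was at 16 and 19.1 at E18.5, against 34.7 and 96 at E13.5 (adjusted p = 0.14). Of 23 Notch pathway genes, 4 rose and 3 fell, and these counts were 1 to 5 and 1 to 3 when any of the 4 libraries was left out. Hey2, a Notch target, fell to 29.9 and 22.4 at E18.5, against 235 and 223 at E13.5 (log2 fold change -3.13, SE 0.438, adjusted p = 1.99e-05), while the receptor Notch1 was at 1670 and 1793 at E18.5, against 1571 and 880 at E13.5 (adjusted p = 0.237). The called shares of the hedgehog and Notch lists were near those of all protein-coding genes and are not read as a change of either pathway. Of these 20210 protein-coding genes, 3011 rose and 2138 fell.

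The cell division genes fell nearly as whole groups. All 35 genes of DNA replication fell, with a median log2 fold change of -1.77, and 44 of 45 mitosis genes fell, with a median of -1.93. Leaving out any of the 4 libraries left 32 to 35 and 43 to 44 of them called. Mki67 (ENSMUSG00000031004), which coats mitotic chromosomes and marks dividing cells, was at 3032 and 2273 at E18.5, against 7308 and 6938 at E13.5 (log2 fold change -1.43, SE 0.302, adjusted p = 0.00154). Top2a, the topoisomerase that untangles chromosomes, was at 2309 and 1809 at E18.5, against 7866 and 8866 at E13.5 (log2 fold change -2.02, SE 0.352, adjusted p = 0.000226). Mcm6, of the replicative helicase, was at 1189 and 793 at E18.5, against 3429 and 3307 at E13.5 (log2 fold change -1.77, SE 0.329, adjusted p = 0.000444). The groups did not overlap in any of these, and replicate 2 was the lower E18.5 library in each. Gins1, of the same helicase, had the largest fold of the falls in the replication list, at 47.1 and 29.1 at E18.5, against 261 and 249 at E13.5 (log2 fold change -2.75, SE 0.39), and Bub1, a kinase of the spindle checkpoint, the largest of the mitosis list with a log2 fold change of -2.68 (SE 0.33). Nek2, a centrosome kinase, was the mitosis gene without a call, at 280 and 313 at E18.5, against 429 and 470 at E13.5.

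The promoters of these genes held the letters of 2 known cell cycle elements, and the lists divided between them. TTTGAA, the CHR element bound in mitosis genes, stood in 24 of 45 mitosis promoters (53.3%) and 3 of 35 replication promoters (8.57%), against 17.1% of all promoters. TTTGGCGC, an E2F site, stood in 8 of 35 replication promoters (22.9%) and in 0 of 45 mitosis promoters, against 0.68% of all promoters, and the related TTTCCCGC in 4 of 35 (11.4%) and in 0 of 45, against 1.37%. Called holders with a high mean level are printed with the motif in capitals on either strand, Top2a (chr11:98914992-98915291, minus strand) for the CHR element, and Mcm6 (chr1:128287403-128287702, minus strand) and Mcm5 (chr8:75835890-75836189, plus strand) for the E2F site. Mcm5, also of the helicase, was at 791 and 504 at E18.5, against 2767 and 2679 at E13.5. The CHR letters begin at position -153 on the same strand and at position 3 on the opposite strand in Top2a, and the E2F letters at positions -100 and -37 on the same strand in Mcm6.
Top2a: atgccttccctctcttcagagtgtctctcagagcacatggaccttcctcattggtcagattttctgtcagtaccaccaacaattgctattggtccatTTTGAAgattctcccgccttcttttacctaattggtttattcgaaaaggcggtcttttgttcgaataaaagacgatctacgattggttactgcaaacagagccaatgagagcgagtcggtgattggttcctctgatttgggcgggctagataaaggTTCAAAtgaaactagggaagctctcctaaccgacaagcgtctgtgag
Mcm6: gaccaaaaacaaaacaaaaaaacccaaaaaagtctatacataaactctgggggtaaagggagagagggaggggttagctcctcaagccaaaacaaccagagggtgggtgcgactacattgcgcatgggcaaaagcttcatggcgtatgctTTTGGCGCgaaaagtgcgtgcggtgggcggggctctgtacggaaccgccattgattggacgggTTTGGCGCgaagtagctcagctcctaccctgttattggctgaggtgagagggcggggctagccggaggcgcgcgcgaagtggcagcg
Mcm5: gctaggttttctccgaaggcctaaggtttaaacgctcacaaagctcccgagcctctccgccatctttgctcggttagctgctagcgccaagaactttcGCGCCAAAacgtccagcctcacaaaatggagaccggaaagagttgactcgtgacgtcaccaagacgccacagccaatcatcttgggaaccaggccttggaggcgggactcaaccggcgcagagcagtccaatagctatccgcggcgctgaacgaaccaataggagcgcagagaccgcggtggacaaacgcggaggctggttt

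Among 16 tested inhibitors of cyclin-dependent kinases and genes of quiescence, 8 rose, 1 fell and 7 had no call. The member that fell, Ccng2, kept its call only without replicate 1 at E13.5 among the 4 fits with a library left out. Cdkn1a (ENSMUSG00000023067), the inhibitor p21, was at 1161 and 838 at E18.5, against 134 and 67.7 at E13.5 (log2 fold change 3.29, SE 0.392, adjusted p = 3.62e-06). Rb1, the retinoblastoma protein, was at 780 and 735 at E18.5, against 317 and 238 at E13.5 (log2 fold change 1.45, SE 0.291, adjusted p = 0.000958). Cdkn1c, an imprinted inhibitor of fetal tissues, had no call, at 6788 and 4240 at E18.5, against 5705 and 5787 at E13.5.

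Of 22 genes of fetal growth, 8 fell, 4 rose and 10 had no call. When any of the 4 libraries was left out, 5 to 8 fell and 1 to 2 rose. Igf2bp1 (ENSMUSG00000013415), which binds and stabilises growth messages, was at 360 and 317 at E18.5, against 1619 and 1531 at E13.5 (log2 fold change -2.22, SE 0.216, adjusted p = 3.04e-07). Hmga2, a chromatin protein of fetal growth, was at 80.2 and 101 at E18.5, against 1023 and 1075 at E13.5 (log2 fold change -3.52, SE 0.413, adjusted p = 2.9e-06). Lin28b, which blocks maturation of let-7 microRNAs, was at 3.21 and 3.32 at E18.5, against 127 and 38.2 at E13.5 (log2 fold change -4.64, SE 0.723, adjusted p = 7.85e-05). The 4 that rose were Meg3, Zim1, Dlk1 and Igf2. Igf2, the fetal growth factor, was at 60770 and 48288 at E18.5, against 26100 and 28089 at E13.5 (log2 fold change 1.01, SE 0.337, adjusted p = 0.0428), and its adjusted p was 0.0754 to 0.24 when any of the 4 libraries was left out. Meg3, an imprinted non-coding RNA, was at 4771 and 4390 at E18.5, against 1069 and 575 at E13.5 (log2 fold change 2.48, SE 0.472, adjusted p = 0.000546).

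Genes that respond to glucocorticoid hormone or take part in its action rose in 13 of 18 cases, with 0 falls and a median log2 fold change of 1.83. Zbtb16, a strongly induced transcription factor, was at 625 and 400 at E18.5, against 47.6 and 9.85 at E13.5 (log2 fold change 4.06, SE 0.689, adjusted p = 0.000174). Klf9, which is also a gene of quiescence, was at 1686 and 1370 at E18.5, against 107 and 215 at E13.5 (log2 fold change 3.26, SE 0.248, adjusted p = 1.01e-08). Hsd11b1, the enzyme that regenerates active hormone, was at 127 and 149 at E18.5, against 8.36 and 9.85 at E13.5 (log2 fold change 3.92, SE 0.57), and the receptor Nr3c1 was at 2665 and 2810 at E18.5, against 1118 and 1368 at E13.5 (log2 fold change 1.14, SE 0.187, adjusted p = 0.000119). Fkbp5, another induced gene, had no call, at 1028 and 666 at E18.5, against 789 and 469 at E13.5. Immediate early genes, which handling of tissue can induce, rose in 6 of 19 cases, a count that was 1 without replicate 2 at E13.5, and Fos was at 450 and 445 at E18.5, against 266 and 75.1 at E13.5 (adjusted p = 0.134).

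Of 27 defence genes tested, 11 rose and 4 fell, the falls numbering 1 to 3 when any of the 4 libraries was left out. Reg3g, a secreted lectin that kills bacteria, was at 13642 and 32246 at E18.5 and at 0 in both E13.5 libraries, at least 8160-fold higher (adjusted p = 0.000249). Ltf, lactoferrin of mucosal secretions and neutrophil granules, was at 6657 and 14483 at E18.5, against 210 and 160 at E13.5 (log2 fold change 5.83, SE 0.805, adjusted p = 3.09e-05). The 4 that fell, S100a8, S100a9, Ngp and Camp, are granule or cytosol proteins of neutrophils and their precursors, as is Mpo, which was at 0 at E18.5, against 174 and 32 at E13.5, at least 36.2-fold lower. Ngp was at 1.07 and 6.65 at E18.5, against 140 and 137 at E13.5 (adjusted p = 0.00294, or 0.0594 without replicate 1 at E18.5). Liver genes, from the organ where such precursors form in the fetus, fell in 13 of 22 cases, a count that was 1 to 2 without either E18.5 library or without replicate 1 at E13.5. Their summed level was 3271 and 6392 at E18.5, against 37350 and 1842 at E13.5, and the part of liver tissue in the neutrophil genes was not tested.

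Most genes of other resident cells had no call. Their counts stand beside background shares of 9.19% for rises and 6.34% for falls, which were higher among protein-coding genes. Of 22 endothelial genes, 3 rose and 1 fell, the rises numbering 0 to 2 when any of the 4 libraries was left out, and Cdh5, the junction cadherin of vessels, was at 2714 and 2599 at E18.5, against 2449 and 2110 at E13.5 (log2 fold change 0.22, SE 0.236, adjusted p = 0.663). Of 22 macrophage and myeloid genes, 4 rose and 1 fell. Cd163, a scavenger receptor of tissue macrophages, was at 109 and 196 at E18.5, against 1.29 and 0 at E13.5, a ratio of 187 (95% counting interval 51.4 to 1550), while Csf1r, which all macrophages carry, was at 1218 and 1112 at E18.5, against 982 and 831 at E13.5 (adjusted p = 0.402). Of 23 neuron genes, 1 rose and 5 fell, and the count of falls was 0 to 1 without either E18.5 library or without replicate 1 at E13.5. Nos1, neuronal nitric oxide synthase, which skeletal muscle also makes, was the member that rose, to 585 and 598 at E18.5, against 10.3 and 4.92 at E13.5 (log2 fold change 6.17, SE 0.568, adjusted p = 1.35e-07).

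The earlier and middle ages placed these differences in time, as a description. Foxj1 was at 37.2 and 12.2 at E10.5, at 7.76 and 8.76 at E11.5, at 10.3 and 4.92 at E13.5, at 125 in replicate 2 and several-fold lower in replicate 1 at E15.5, and at 665 and 491 at E18.5. Col2a1 was at 1890 and 3648 at E10.5, at 759 and 1161 at E11.5, at 511 and 448 at E13.5, at 41520 and 32581 at E15.5 and at 136417 and 66500 at E18.5, so the E13.5 level was the lowest of the series and both E15.5 libraries lay between those of E13.5 and E18.5. Gata6 was at 801 and 1062 at E13.5 and at 21.1 and 84.4 at E15.5, and Igf2bp1 was lower at E11.5, E13.5 and E15.5 than at the age before each. The E15.5 libraries differed strongly from each other: Krt15 was at 0 in replicate 1 and at 2489 in replicate 2, and Ucp1, the uncoupling protein of brown fat, at 29759 in replicate 1 and at 309 in replicate 2. In replicate 2, 1079 of 1379 olfactory receptor genes had a count, against 82 to 166 in the 4 libraries compared here. Among the short-code libraries, the E15.5 values thus rest on 1 library for epithelial genes, and the index libraries of E15.5 trachea are not described here. At E18.5 and E13.5 Ucp1 was at 18.2 and 136, against 0 in both.

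**Figure D4:**
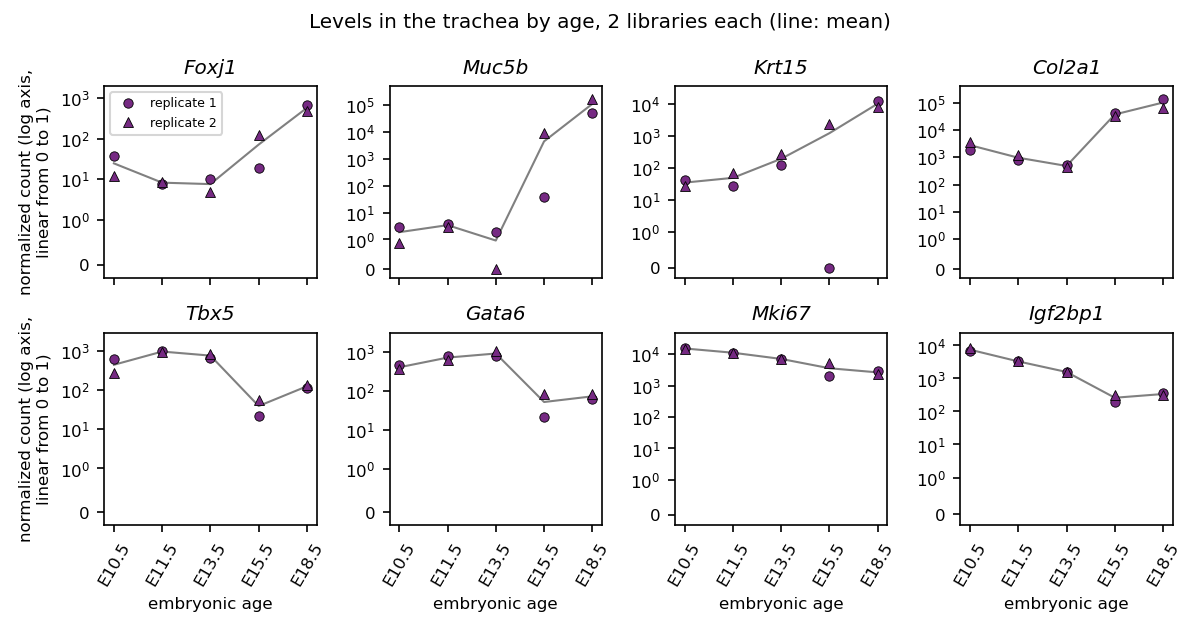
Normalized read counts (log axis, linear from 0 to 1) of 8 genes in the trachea at 5 embryonic ages, with 2 short-code libraries per age as separate symbols and a line through their means. Foxj1, Muc5b, Krt15 and Col2a1 were highest at E18.5, and Tbx5, Gata6, Mki67 and Igf2bp1 were lower at E15.5 and E18.5 than at E13.5, with the 2 E15.5 libraries far apart for Muc5b (38.3 and 8638) and Krt15 (0 and 2489).

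Whether a change belonged to the trachea was asked by testing the difference of its E18.5 to E13.5 change from that in the esophagus and in the larynx. Against the esophagus, 1 gene of 35512 (0.00282%) differed, and 1130 had an unadjusted p under 0.05. Against the larynx, 20 differed (0.0563%), 17 with a higher and 3 with a lower change in the trachea, and 1874 had an unadjusted p under 0.05. A Wald test in DESeq2 gave 14 and 124 genes. With the replicate number as a block there were 0 and 7 genes, and with that block within each age 0 and 12. These tests had less power than the main comparison, with a median SE of 0.38 against 0.27 among genes with a mean level of at least 50, so that few calls do not show that the organs changed alike.

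The medians of 29 of the 38 lists had the same sign in all 3 organs, and those of 9 did not. The structural cilium genes had a median log2 fold change of 5.48 in the trachea, 5.53 in the esophagus and 3.54 in the larynx. Ciliated cells are known from the embryonic mouse esophagus. Cartilage genes had medians of 4.69, 2.41 and 4.21 in the same order, secretory genes 5.69, 6.47 and 4.35, mitosis genes -1.93, -1.78 and -1.26, and skeletal muscle genes 5.84, 4.57 and 7.0. No member of the cilium, secretory, basal, replication or mitosis lists was called in either difference. With only 0.00282% and 0.0563% of all genes called, this absence says nothing about these lists. The neuroendocrine, cartilage and heart muscle lists each held 1 gene called against the larynx. Ccdc170, a gene of ciliated cells that is not in the cilium lists, differed from the larynx by 8.41.

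**Figure D5:**
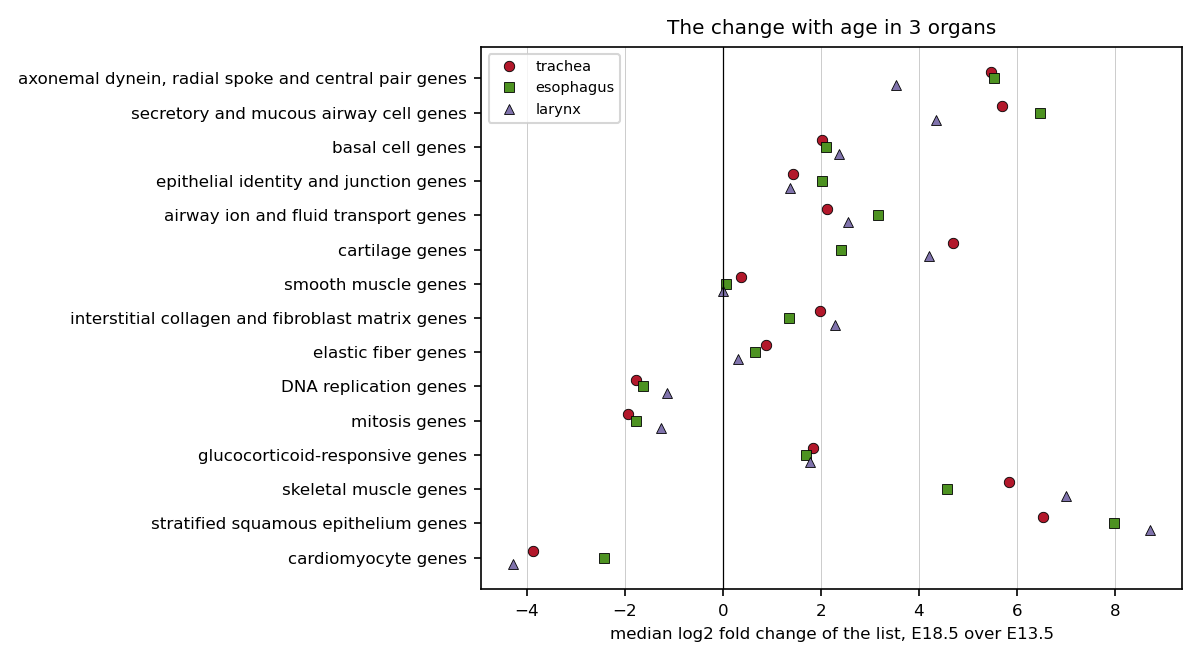
Median log2 fold change, E18.5 over E13.5, of 15 gene lists in the trachea, esophagus and larynx. The points of the 3 organs lay on the same side of 0 for 14 of these 15 lists (29 of all 38), the exception being the smooth muscle list at 0.37 in the trachea and near 0 in the larynx, and cartilage was highest in the trachea (4.69) and lowest in the esophagus (2.41).

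The gene that differed from the esophagus was Zfhx4, a zinc finger homeobox factor of cartilage and muscle development. It was at 985 and 1153 at E18.5, against 875 and 619 at E13.5 in the trachea, and at 487 and 365 at E18.5, against 1552 and 1589 at E13.5 in the esophagus, so its change was higher by 2.4 on the log2 scale in the trachea (SE 0.361, adjusted p = 0.0272). The largest lower change than in the larynx was in Col10a1. Its level was 89.8 and 62.3 at E18.5, against a mean of 11.3 at E13.5 in the trachea, and 11971 and 2974 at E18.5, against 6.65 and 2.75 at E13.5 in the larynx, a difference of -7.73 (SE 0.946, adjusted p = 0.000428). Msln, mesothelin of the linings of body cavities, was at 2773 and 3657 at E18.5, against 93.3 and 107 at E13.5 in the trachea, and at 253 and 380 at E18.5, against 179 and 408 at E13.5 in the larynx, a difference of 4.89 (SE 0.878, adjusted p = 0.0344). Calca, the gene of calcitonin and its related peptide, made in thyroid C cells and sensory and neuroendocrine cells, was at 260 and 335 at E18.5, against 65.6 and 91.1 at E13.5 in the trachea, and at 8.72 and 19.1 at E18.5, against 119 and 208 at E13.5 in the larynx, a difference of 5.46 (SE 1, adjusted p = 0.0357). Of these 4, only Col10a1 kept its call in most of the 19 alternatives (18 of them), whereas Zfhx4 kept it in 5, Calca in 7 and Msln in 9.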

How the data were processed

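Bulk RNA-seq libraries of the trachea at E18.5 (2) and E13.5 (2) were compared, within 40 libraries in all. The authors deposited expected counts per gene from RSEM 1.3.3 with Bowtie2 2.4.2, after FastQC 011.5 (versions from the submitters' processing notes); the sources used here name neither the annotation release nor the strand setting. RSEM divides reads that match several genes, so levels of close paralogs are uncertain. The estimated counts were rounded, the 35512 genes that reached 1 normalized count in 2 or more libraries were kept, and a group-means model over the 30 short-code libraries (15 groups, 15 residual degrees of freedom) was fitted with edgeR 4.0.16 (limma 3.58.1, R 4.3.3) using median-ratio factors and the quasi-likelihood test, with Benjamini-Hochberg adjustment at 0.05. SE is the absolute log2 fold change divided by the square root of F. The 10 index libraries entered an alternative only.

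The total of expected counts was 12883607 to 26378626 per compared library. In data simulated for this comparison (34000 genes), 67 of 67 genes with an absolute log2 change of 4 were recovered, 40 of 67 at 2, 1 of 66 at 1, and 4 of 33800 unchanged genes were called. Genes at 0 in a group are given as bounds against a floor of 3 counts per library, and ratios with 1 to 3 counts with exact 95% intervals. Floors and intervals cover counting error only. Of 53647 identifiers, 52610 matched GENCODE vM39 (GRCm39), which gave symbols and promoters of 300 bases.

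Genes named were the 10 largest rises and falls, the highest and most changed members of each list, a set of anchor genes and the largest organ differences, of which some are not reported here. The other genes named were chosen after their values were seen (among them Spdef, Agr2, Cyp2f2, Chad, Rb1, Hmga2, Fos, Csf1r, Foxa2 and the members without a call). The comparison, lists and anchors were chosen with earlier results of these data known. Alternatives covered scaling, filters, the libraries in the fit, a replicate block, each library left out, the threshold and DESeq2 1.42.0.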

Additional observations from a re-analysis of the deposited data

Results flagged for a closer look

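These 9 genes had an E18.5 to E13.5 change in the trachea that differed from the change in another organ by the test of the difference itself. Zfhx4 changed by 0.52 in the trachea and by -1.88 in the esophagus on the log2 scale, a difference of 2.4 (adjusted p = 0.0272), which was called in 5 of 19 alternatives (adjusted p from 2.82e-10 to 1).

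Against the larynx, 5 genes with the largest positive differences were examined. Ccdc170, a gene of ciliated cells, was at 228 and 145 at E18.5, against 0 in both E13.5 libraries in the trachea, and differed by 8.41. Sall1, a zinc finger factor, differed by 5.63, Pla2g5, a secreted phospholipase, by 5.55, Calca by 5.46 and Msln by 4.89. Their adjusted p was 0.0344 to 0.0483, and each was called in 5 to 9 of 19 alternatives.

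The 3 negative differences were in Col10a1, at -7.73 (adjusted p = 0.000428, called in 18 of 19 alternatives), Foxd1, a forkhead factor, at -4.27 (0.0357, called in 6) and B3gnt5, a glycosyltransferase, at -1.68 (0.0344, called in 9). B3gnt5 fell in both organs, to 81.3 and 77.3 at E18.5, against 663 and 864 at E13.5 in the trachea, and to 181 and 219 at E18.5, against 681 and 520 at E13.5 in the larynx.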

How the results depend on the processing

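The number of genes called in the trachea, 5512, was 3404 at an adjusted p of at most 0.01 (2090 higher, 1314 lower), 3011 to 4177 with each library left out (1724 to 2522 higher, 1057 to 1655 lower), 3972 with all 40 libraries, 5371 with the replicate block and 7119 with DESeq2. Of 169 named genes called, 112 kept the call in each of the 4 fits without a library. With the replicate numbers as a block, Sox9 was the named gene that lost its call. Deviations of the E18.5 and E13.5 libraries with the same number correlated at 0.014 over 17795 genes across the ages, which gives no sign of pairing there. Within an age, same-numbered libraries of the 3 organs correlated at 0.202 to 0.292 at E13.5 and at 0.129 to 0.151 at E18.5, at most a hint from the data. At E11.5 these values were -0.339 to 0.227. Of all 105 pairs of groups, 19 lay above 0.1 and 21 below -0.1, so pairing within an age is not settled. A block within each age, chosen after seeing the data, gave 0 differences from the esophagus (0 higher, 0 lower) and 12 from the larynx (10 and 2). Myh11, at -0.01, was at 0.01 with protein-coding genes only and at -0.44 to 0.33 with each library left out, and Cdkn1c, which had no call, was at -0.43 to 0.24.

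The difference from the esophagus, 1 gene (1 higher, 0 lower), gave 298 genes without the filter (185 and 113), 14 with DESeq2 (9 and 5), 0 with filterByExpr, all 40 libraries, the compared libraries only, without the 3 libraries rich in olfactory receptor genes, protein-coding genes only, the replicate block or a threshold of 0.01, and 0 to 5 with a library left out (0 to 5 higher, 0 to 2 lower). The difference from the larynx, 20 genes (17 and 3), gave 525 without the filter (337 and 188), 124 with DESeq2 (95 and 29), 76 with the compared libraries only (54 and 22), 37 without the olfactory libraries (31 and 6), 30 with TMM (24 and 6), 24 with protein-coding genes only (21 and 3), 7 with the replicate block (5 and 2), 3 with filterByExpr (1 and 2), 2 at 0.01 (1 and 1), 0 with all 40 libraries (0 and 0), and 2 to 14 with a library left out (1 to 12 higher, 1 to 3 lower). The cause was not tested. Changes near 1 on the log2 scale were seldom recovered in simulation, where few genes were changed and all had the same spread. In the data many more genes were called, and those that fell had a median log2 fold change of -1.15. The simulation thus does not give the power of the real comparison.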
